A study of Arabidopsis thaliana with 10 samples.

Results

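Transcripts of the chloroplast genome were followed through 10 polyA-selected RNA libraries from Arabidopsis leaves. The members are the rows of the count table whose gene identifier marks the chloroplast genome and whose counts sum to 20 or more over the 10 libraries. This rule kept 98 of the 133 chloroplast rows, out of 33602 rows in all, and 73 of the 98 had enough counts to be tested for differences between groups. The lowest members were rrn4.5S.1, with 20 counts in all, and trnR.1 and trnT.2, with 21 each, and the highest row left out was trnS.3, with 19. Of the 35 rows left out, 30 encode tRNAs and 5 are other genes. Among all 35, tRNA rows included, 5 had no count in any library.

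Each library came from the fifth true leaves of plants 4 weeks old, and each of the 5 groups has 2 libraries. Wild-type Col-0 was kept at 22 °C throughout. The heated group is Col-0 moved to 30 °C after 1 week on plates, and is the first generation of the series. Generation 2 is the unstressed progeny of these plants, and generation 3 is the unstressed progeny of generation 2, both Col-0. The last group is the sgs3-12 mutant, for which no heat treatment is given. SGS3 is a protein needed for the production of trans-acting small RNAs. All plants had long days of 16 h light and 8 h dark. No label states whether the paired libraries represent different plants, so every p-value reflects just the spread among these libraries, and that spread may be technical.

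The chloroplast keeps a small circular genome of its own, inherited from a cyanobacterium, which encodes core subunits of the photosynthetic complexes, part of the plastid ribosome and RNA polymerase, and the rRNAs and tRNAs that the organelle needs. Most of these genes lie in clusters that are transcribed together and then cut, trimmed, spliced and edited. A polyA tail does not stabilise most plastid transcripts but marks RNA for decay, and so polyA selection recovers plastid RNA inefficiently. The remaining subunits of the same complexes are encoded in the nucleus, and their mRNAs carry the usual polyA tail.

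Total counts ranged from 17674090 to 23145159 per library. The SGS3 gene itself stood at 9.40 and 8.02 CPM (counts per 10⁶ counts, scaled by edgeR's TMM factors) in the mutant libraries. Wild type had 24.0 and 35.1, and the heated libraries 25.4 and 21.0. It also stood at 9.48 and 7.87 in generation 2 and at 14.1 and 15.2 in generation 3, so a low level did not single out the mutant. Leaf mesophyll markers were abundant in all libraries, with summed levels from 29944 to 100020 CPM over 5 genes. Markers of root summed to between 28.3 and 69.1 CPM over 7 genes, 3 of which were at 0 everywhere, and those of flower to between 1.65 and 7.68 over 4 genes. The first libraries of generation 2 and of generation 3 stood apart in how level depended on gene length, with slopes of -1.94 and -1.04 on the log2 scale per 10-fold length, against -0.38 to 1.03 in the other 8.

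Since the libraries were made from polyA-selected RNA, the stretch of 30 bases with the most A was found in each protein-coding or RNA gene together with the 200 bases after its end. The first of the windows shown belong to the members with the highest level per length, rpl32, psaJ, atpE and psbM, and they are set beside windows of rpoC2 and ycf1.2, which are long genes at low levels. The rows share exact coordinates with the RefSeq annotation of the TAIR10 chloroplast genome (154478 bases) in 125 of 133 cases, and the sequences are from that genome, written 5′ to 3′ on the gene's strand. Capitals mark the longest run of A within the window.

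rpl32, Pt:113667-113696, plus strand, 60 bases after the gene end: AAAAAAAAtaggaagcaaaagaagaaaaaa
psaJ, Pt:67205-67234, plus strand, 142 bases after the gene end: ccaatgaaattagtaatagaacgAAAAAAA
atpE, Pt:52181-52210, minus strand, 55 bases after the gene end: aaagacgataaaaacaataaaatAAAAAAA
psbM, Pt:28673-28702, minus strand, 5 bases after the gene end: aataaaattttactatcAAAAAAAAAAAAA
rpoC2, Pt:17911-17940, minus strand, inside the gene: agAAAAAAAAAAAAAggattgaactcaaaa
ycf1.2, Pt:126474-126503, minus strand, inside the gene: aaaaaaaagaatcaaaaaattAAAAAAAAA

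The rpl32 and atpE windows hold 23 A among their 30 bases, psaJ 18, psbM 21, rpoC2 21 and ycf1.2 25. Members with a high level per length had the window on either side of the gene end: in atpB, the second rpl2 copy and rpl16 it lay inside the gene. Across the 85 protein-coding members, the mean level per length and the longest run of A had a Spearman correlation of -0.15, and that level and the number of A in the window one of -0.01. With total counts in place of the level per length, both were 0.17. These are descriptions across genes, which share libraries and the A-rich base composition of the plastid genome. The 16 members with a run of 10 or more A had a median of 1.57 FPKM (fragments per kilobase of gene and 10⁶ counts), and the others a median of 2.65.

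Chloroplast counts came mainly from a few genes. The gene for the beta subunit of ATP synthase, atpB, alone held 17.2% of them, and the 6 ATP synthase genes together held 28.6%, from 19.8% to 34.5% by library. Proteins of the large ribosomal subunit held 22.8%, photosystem II subunits 13.2%, subunits of the plastid-encoded RNA polymerase 6.93%, photosystem I subunits 5.61% and proteins of the small ribosomal subunit 5.24%. The NDH complex, which returns electrons to the plastoquinone pool, held 3.92%, rRNA 3.60%, the large subunit of rubisco 2.21%, the cytochrome b6f complex 1.73% and tRNA 0.884%. By library, the polymerase share ran from 3.09% to 13.3% of chloroplast counts and the rRNA share from 1.44% to 7.69%.

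By count, the next genes after atpB were rpl32, for a protein of the large ribosomal subunit, with 16.7 to 60.8 CPM by library, the second copy of rpl2, another such protein, with 10.7 to 33.7, and atpE, the epsilon subunit of ATP synthase, with 7.14 to 28.6. They were followed by rpoB, the polymerase beta subunit, with 2.96 to 31.3 CPM, psbA, the D1 reaction centre protein, with 5.20 to 22.9, psaJ, a small photosystem I subunit, with 5.96 to 23.3, and atpA, the ATP synthase alpha subunit, with 5.01 to 15.6. For rpl32 the highest library was the first of generation 2, with the first of generation 3 next at 47.4 CPM, and the lowest was a heated one. The rest of the 10 highest were psbB with 3.34 to 16.8 CPM and rbcL with 5.25 to 8.97, the most even of the 10. Within families, ndhK led the NDH genes with 2.53 to 7.23 CPM, petA the b6f genes with 1.36 to 6.04, ycf1.2 the ycf genes with 1.25 to 5.10 and trnS.1 the tRNAs with 0.534 to 2.02.

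Per length, the order was different. The gene rpl32 had the highest mean, 174 FPKM, followed by psaJ, with 80.6. The next were atpE, with 39.9, psbM, a small photosystem II subunit, with 39.6, and atpB with 33.5. The core photosynthetic genes that dominate total chloroplast RNA in leaves were not at the top, with 10.5 FPKM for psbA, 4.50 for rbcL, 1.24 for psaB and 1.14 for psaA. At the low end were ycf2, with 0.0801 and 0.163 for its copies, ndhF with 0.187 and accD, a subunit of acetyl-CoA carboxylase, with 0.203. Genes of one transcription unit could differ widely: the levels in the unit of psaI, ycf4, cemA and petA spanned a ratio of 12.1, whereas atpB and atpE differed by a ratio of 1.19.

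**Figure D1:**
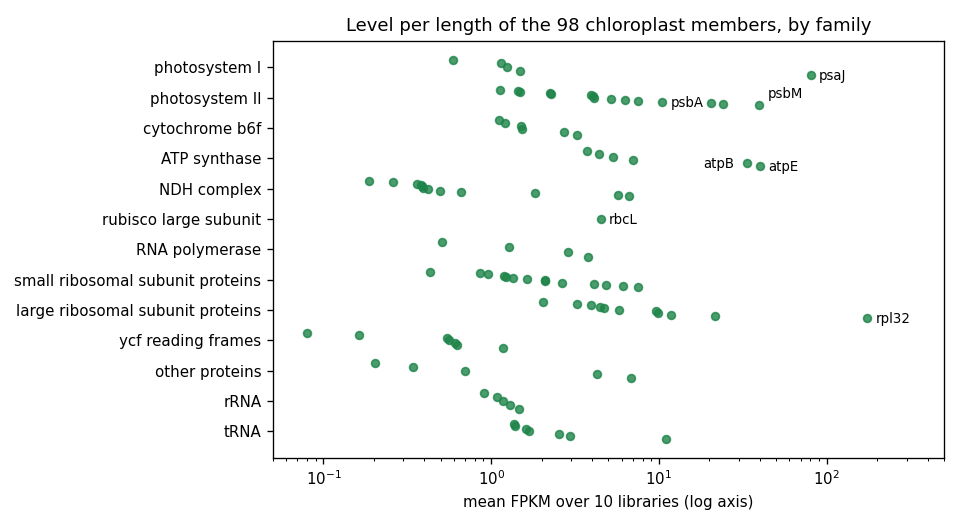
Mean level per length over the 10 libraries (FPKM, log axis) of the 98 members, 1 point per gene, by family. A few genes stand far to the right of their families, with rpl32 at 174 FPKM and psaJ at 80.6, while most NDH and ycf genes lie below 1.

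Chloroplast rows took a smaller share of all counts in the heated plants than in any other group. The share was 0.0396% and 0.0262% (wild type), 0.0206% and 0.0234% (heated), 0.0359% and 0.0285% (generation 2), 0.0318% and 0.0326% (generation 3) and 0.0271% and 0.0271% (sgs3-12). The heated libraries were the lowest pair of the 10, and the 8 unstressed libraries lay above both. Their mean was 0.0220% against 0.0311% over the 8, a ratio of 0.713 between geometric means. A two-sided exact permutation test over the 45 splits, in which the one-sided p is doubled, gave p = 0.0444. That is the smallest p this doubling can give here. After adjustment over the 2 tests of the share it was 0.0889, so the difference did not pass by this rule. The test over all 5 groups at once gave an exact permutation p of 0.194. In polyA-selected leaf RNA, fewer chloroplast-rich cells, less chloroplast RNA per cell and a different recovery of it by polyA selection cannot be told apart.

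Other values moved with this contrast. Mitochondrial rows took 0.0246% and 0.0164% of counts in the heated libraries and 0.00182% to 0.00770% in the others. The summed level of 3 guard cell markers was 28.7 and 38.7 CPM in the heated libraries and 40.1 to 89.1 in the others, and that of 2 epidermis markers 45 and 45.1 against 47.8 to 85.5. Mesophyll markers overlapped, with 41898 and 42156 CPM against 29944 to 100020, as did 2 phloem markers, with 121 and 193 against 112 to 320. The part of these cell types in the chloroplast share was not tested.

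**Figure D2:**
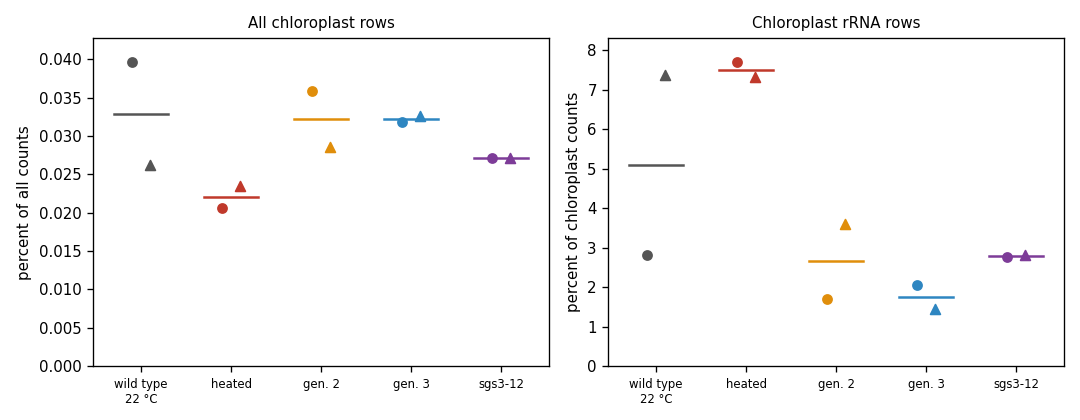
Left, chloroplast rows as percent of all counts, and right, rRNA rows as percent of chloroplast counts, in each library (circle, replicate 1, triangle, replicate 2, line, mean of the pair). The heated libraries are the lowest pair on the left, at 0.0206% and 0.0234%, and with 1 wild-type library the highest on the right, at 7.34% to 7.69%.

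Against the mean of the 4 unstressed groups, 53 of the 73 members tested, 72.6%, were lower in heated plants, beside 51.5% of all genes, with a median log2 fold change of -0.48, beside -0.02 over all 19768 genes tested. The gene families did not move alike. ATP synthase, cytochrome b6f, NDH and large ribosomal subunit genes had summed levels below all 8 unstressed libraries, whereas rbcL differed by -0.06 on the log2 scale and rRNA was higher on average. The margin was narrow for NDH, at 7.48 and 8.12 CPM against 8.16 in the lowest unstressed library. It was also narrow for the large ribosomal subunit, at 46.1 and 46.0 against 47.4. No member was called by edgeR's quasi-likelihood test at an adjusted p under 0.05, in this or any of the other 6 comparisons, where 0 of the 19768 genes (0.0%) were called. At an unadjusted p under 0.05 there were 8 members here, beside 9.90% of all genes. In 9 members, or 12.3%, both heated libraries lay below all 8 others, beside 3.58% of all genes, and in 2 both lay above, beside 5.84%. Members whose libraries do not overlap between the groups compared are called separated below. Without wild-type replicate 1 these counts were again 9 and 2, beside 4.46% and 6.2% of all genes. Without the first libraries of generations 2 and 3 they were 9 and 3, beside 8.11% and 9.85%, so the members' share below was then closer to that of all genes.

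Both genes of the atpB-atpE unit were among the 9. The level of atpB was 80.6 and 40.8 CPM (wild type), 19.3 and 28.0 (heated), 63.5 and 55.7 (generation 2), 61.6 and 70.1 (generation 3) and 45.2 and 46.6 (sgs3-12). Its highest heat value thus lay below the lowest unstressed one. The log2 fold change was -1.28 ± 0.34 (SE), with an adjusted p of 0.251 by edgeR and 0.0151 by DESeq2. For atpE the levels were 26.4 and 12.3 CPM (wild type), 7.14 and 7.91 (heated), 28.6 and 19.0 (generation 2), 22.4 and 16.5 (generation 3) and 11.3 and 13 (sgs3-12), again without overlap. Its log2 fold change was -1.27 ± 0.37, with an adjusted p of 0.284 by edgeR and 0.0415 by DESeq2. The other ATP synthase genes did not all follow, since the unit of atpI, atpH, atpF and atpA with rps2 had log2 fold changes from -0.99 to 0.34.

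Among photosystem II genes, psbB, which encodes the inner antenna protein CP47, showed the same separation. It stood at 9.42 and 9.36 CPM (wild type), 3.98 and 3.34 (heated), 16.8 and 7.87 (generation 2), 11.9 and 8.66 (generation 3) and 4.28 and 6.50 (sgs3-12). The sgs3-12 values were the nearest to those of the heated plants. The log2 fold change was -1.29 ± 0.39, with an adjusted p of 0.293 by edgeR and 0.0469 by DESeq2. The 3 genes atpB, atpE and psbB were the only members that DESeq2 called in this comparison, where it called 2.59% of all genes, and limma-voom called no member, beside 0.0253% of all genes. Next to psbB in its transcription unit, psbT, for a small photosystem II protein, also lay below all 8, at 0.292 and 0.423 CPM against 0.440 to 1.79. Summed over the unit of psbB, psbT, psbH, petB and petD, the heated libraries held 5.05 and 5.12 CPM and the others 6.12 to 21.6.

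Photosystem II genes were not uniformly lower. For psbF, a subunit of cytochrome b559, the levels were 0.826 and 0.634 CPM in heated plants and 0.223 to 0.531 in the others, a log2 fold change of 0.79 ± 0.51 (adjusted p 0.692 by edgeR). All 4 genes of the psbE-psbF-psbL-psbJ unit had fold changes above 0, from 0.21 to 0.79. The photosystem I genes psaA and psaB, which form a unit with rps14, had log2 fold changes of 0.02 and 0.01.

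In the cytochrome b6f complex, petA, the gene of cytochrome f, stood at 1.36 and 1.61 CPM in heated plants against 1.76 to 6.04 elsewhere, and the summed b6f genes at 2.33 and 3.13 against 3.40 to 9.49. In the NDH complex, ndhC stood at 0.243 and 0.423 CPM against 0.556 to 1.26. For ndhD the levels were 0.486 CPM and 0 in the heated libraries and 0.535 to 1.40 in the others, with a log2 fold change of -1.89 ± 1.03 that rests on very few counts. The large subunit of rubisco, rbcL, overlapped throughout, with 5.25 and 7.40 CPM against 5.30 to 8.97.

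The remaining separated members that were lower belong to the inverted repeat, where each gene has an identical second copy. One rps7 copy, for a small ribosomal subunit protein, stood at 0.194 and 0.296 CPM in the heated plants against 0.442 to 1.07, with a log2 fold change of -1.38 ± 0.61 (adjusted p 0.504 by edgeR). One rpl2 copy stood at 12.4 and 10.7 CPM against 12.7 to 33.7. With copies summed, both overlapped: rpl2 stood at 15.9 and 13.4 CPM against 15.8 to 42.7, and rps7 at 1.89 and 3.47 against 2.75 to 6.03.

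The largest positive log2 fold change among separated members belonged to ycf1.1, a truncated copy of ycf1, which encodes a large protein of the chloroplast inner envelope. Its level was 0.486 and 0.324 CPM (wild type), 3.16 and 1.65 (heated), 0.897 and 1.07 (generation 2), 1.06 and 1.46 (generation 3) and 0.520 and 1.34 (sgs3-12). The heated libraries lay above all others, with a log2 fold change of 1.53 ± 0.47 (adjusted p 0.295 by edgeR). The first 1030 of the 1032 bases of ycf1.1 are identical to those of the full-length ycf1.2, and it overlaps ndhF by 39 bases, so its counts are uncertain. With both ycf1 rows summed, the heated libraries had 5.59 and 5.33 CPM, the others 1.58 to 6.0, and the log2 fold change was 0.55.

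Ribosomal RNA went the other way from most protein-coding genes. Summed rRNA levels were 11.5 and 18.4 CPM (wild type), 14.5 and 15.7 (heated), 7.63 and 10.3 (generation 2), 7.69 and 4.91 (generation 3) and 6.64 and 6.86 (sgs3-12). Wild type and heated plants overlapped, and both lay above the other 3 groups. As a share of chloroplast counts, rRNA was 2.83% and 7.38% in wild type, 7.69% and 7.34% in heated plants, and 1.44% to 3.60% elsewhere, so that the wild-type libraries themselves fell on both sides.

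**Figure D3:**
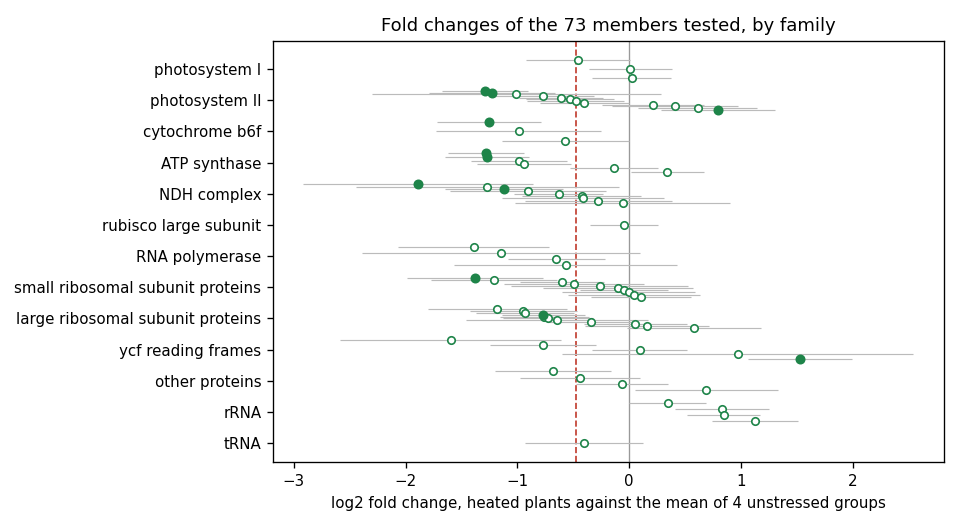
Log2 fold change of each tested member in heated plants against the mean of the 4 unstressed groups, by family, with its standard error. Filled points are the members whose heated libraries lie outside the range of all 8 others, and the dashed line is the members' median, -0.48. Most ATP synthase and NDH points lie to the left of 0 and all 4 rRNA points to the right.

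**Figure D4:**
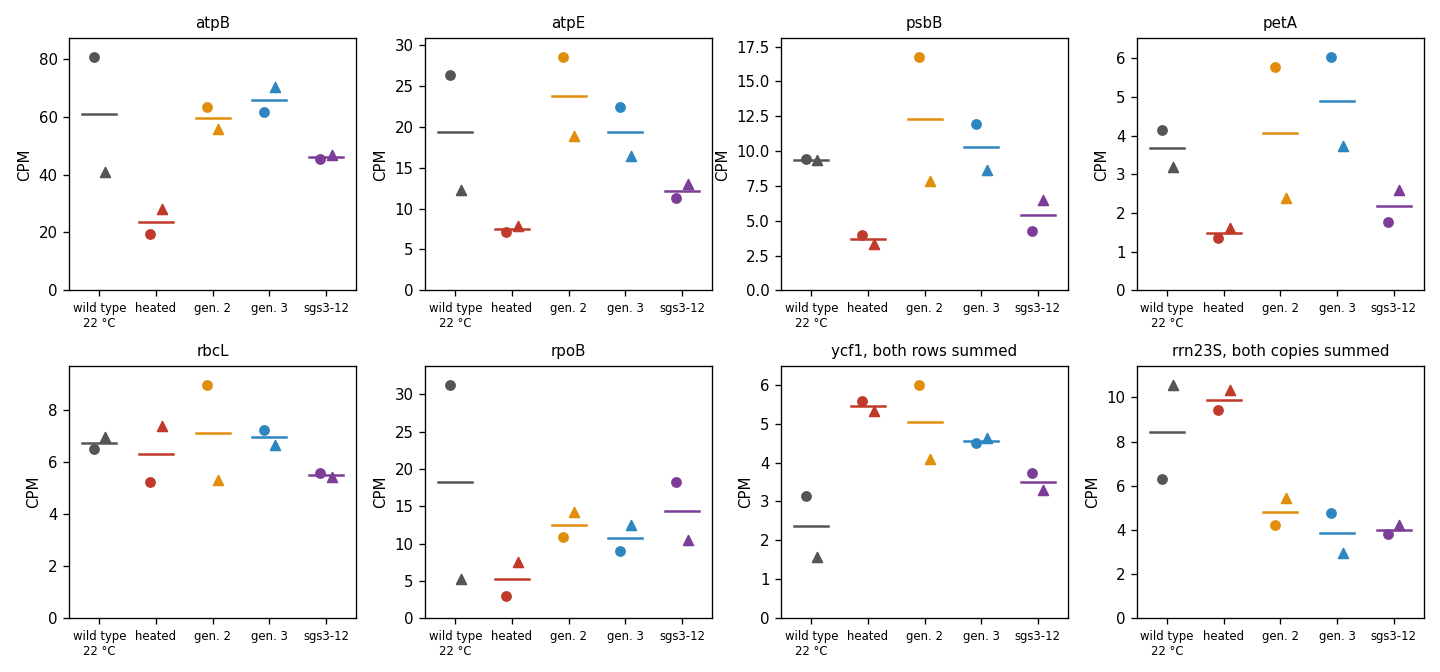
Level in each library (CPM, TMM-scaled) of 6 members and of the summed ycf1 and rrn23S rows, by group (circle, replicate 1, triangle, replicate 2, line, mean). The heated libraries are the lowest for atpB, atpE, psbB and petA, and not for rbcL or rrn23S.

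Compared with wild type alone, the heated plants had lower values in 55 of 73 members, beside 51.6% of all genes, with a median log2 fold change of -0.51, beside -0.02 over all genes. Both heated libraries lay below both wild-type ones in 27 members, 37.0%, beside 25.2% of all genes, and above them in 4 (atpI, accD, psbF and ycf1.1), beside 26.3%. The size of this difference depended on 1 library: without wild-type replicate 1 the median was 0.0070, and the counts were 31 below, 42.5%, beside 40.7% of all genes, and 21 above, 28.8%, beside 40.4%. The 2 wild-type libraries differed by a median of 0.44 on the log2 scale over the members, and 16 members differed more than 2-fold between them. The polymerase genes differed most. For rpoB, wild type had 31.3 and 5.28 CPM, and for rpoC2 5.66 and 0.464.

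The members with the largest separated differences from wild type were ycf1.1 at 2.55 ± 0.69 (log2, adjusted p 0.482 by edgeR), ndhD at -2.10 ± 1.18, an ndhB copy at -1.54 ± 1.38, rps19 at -1.48 ± 0.66, accD at 1.15 ± 0.87 and psbF at 0.76 ± 0.68. For rps19, a small ribosomal subunit protein, wild type had 2.21 and 0.881 CPM and the heated plants 0.680 and 0.423. For accD, wild type had 0.221 and 0.139 CPM and the heated plants 0.437 and 0.381. None passed by DESeq2 or limma-voom either, while DESeq2 called 1.32% of all genes. At an unadjusted p under 0.05 by edgeR there were 5 members, beside 7.91% of all genes.

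Most chloroplast members had higher values in the unstressed progeny than in their heated ancestors. Generation 2 had a median log2 difference of 0.72 from heated plants, with 53 of 73 members higher (beside 54.6% of all genes), and generation 3 one of 0.69, with 59 higher (beside 49.3%), beside 0.07 and -0.01 over all genes. Both comparisons use the same heated libraries. All 5 mesophyll markers were also higher in both generations, by medians of 0.56 and 0.65, with sums of 100020 and 45366 CPM in generation 2 and 84360 and 55585 in generation 3, against 41898 and 42156 in heated plants, and their part in the difference was not tested. Both generation 2 libraries lay above both heated ones in 36 members, 49.3%, beside 16.7% of all genes, and below in 7, beside 18.7%. For generation 3 the counts were 39 above, 53.4%, beside 22.5% of all genes, and 11 below, beside 23.5%. Without the first libraries of both generations, generation 2 lay above in 41, 56.2%, beside 40.0% of all genes, and below in 17, 23.3%, beside 43.3%. Generation 3 then lay above in 53, 72.6%, beside 37.8%, and below in 12, 16.4%, beside 40.8%. The generation 2 median was then 0.36.

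In generation 2 the separated members with the largest differences from the heated plants were ycf4, a photosystem I assembly factor, at 2.51 ± 1.14 on the log2 scale, ndhD at 2.00 ± 1.18, psbT at 1.85 ± 0.67, psbB at 1.75 ± 0.46 and atpE at 1.66 ± 0.44. DESeq2 called psbB (adjusted p 0.0382) and atpE (0.0460), where it called 1.58% of all genes, and edgeR gave both an adjusted p of 0.476. At an unadjusted p under 0.05 by edgeR there were 11 members, beside 9.35% of all genes. On the lower side were ycf1.1 at -1.28 ± 0.65 and the rrn23S copies at -1.28 ± 0.53 and -0.78 ± 0.44. With copies summed, rrn23S stood at 4.21 and 5.44 CPM in generation 2 and 9.43 and 10.3 in the heated plants.

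In generation 3 the separated members with the largest differences were ndhD at 1.86 ± 1.18, an rps7 copy at 1.80 ± 0.71 and ndhC at 1.75 ± 0.63 on the higher side. On the lower side were an rrn23S copy at -1.58 ± 0.45, ndhA at -1.29 ± 1.22 and an rrn16S copy at -1.23 ± 0.46. For ndhC, generation 3 had 1.26 and 1.02 CPM and the heated plants 0.243 and 0.423. Summed rrn23S was 4.78 and 2.97 CPM in generation 3. The lowest adjusted p of any member by edgeR was 0.580, for atpB, and DESeq2 called none, beside 1.06% of all genes. At an unadjusted p under 0.05 by edgeR there were 13 members, beside 6.88% of all genes.

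Against wild type, the progeny differed little in the median, and its sign depended on single libraries. The median log2 fold change was 0.16 in generation 2 and 0.15 in generation 3, with 46 of 73 members higher in each, beside 55.2% and 52.3% of all genes, whose medians were 0.11 and 0.04. Without wild-type replicate 1 they were 0.66 and 0.62, without wild-type replicate 2 -0.21 and -0.15, and without the first library of generation 2 its median was -0.20. Generation 2 lay above both wild-type libraries in 12 members, 16.4%, beside 16.8% of all genes, and below in 8, beside 17.2%. Generation 3 lay above in 16, 21.9%, beside 21.1%, and below in 5, beside 22.2%. Without wild-type replicate 1 the counts above were 40, 54.8%, beside 29.0% of all genes, and 47, 64.4%, beside 34.7%. Without the first libraries of both generations, generation 2 lay below in 24, 32.9%, beside 38.7%, and above in 15, 20.5%, beside 34.5%. Generation 3 then lay below in 11, 15.1%, beside 37.1%, and above in 25, 34.2%, beside 35.1%.

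In generation 2 the separated members furthest from wild type were rps18 at 1.97 ± 0.85, ycf4 at 1.69 ± 1.07 and matK, the plastid intron maturase, at 1.33 ± 0.67. Lower were rpoC1 at -2.88 ± 1.3, an rps12 copy at -0.83 ± 0.57 and an rps7 copy at -0.70 ± 0.46. The rpoC1 value rests on wild-type levels of 8.62 and 1.3 CPM against 0.505 and 0.826. For rps18, wild type had 0.221 and 0.278 CPM and generation 2 had 1.46 and 0.535.

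In generation 3, ycf1.1 at 1.62 ± 0.68, ndhJ at 1.31 ± 0.66 and rps18 at 1.26 ± 0.85 were higher than wild type, and ndhA at -2.18 ± 1.20, an rrn16S copy at -1.65 ± 0.47 and an rrn23S copy at -1.47 ± 0.45 were lower. Summed over copies, wild type had 4.91 and 7.74 CPM of rrn16S and generation 3 had 2.85 and 1.85. The lowest adjusted p of a member by edgeR was 0.548, for the rrn16S copy, beside 0.413 for psbM in generation 2. DESeq2 called no member in either generation, beside 3.14% and 0.926% of all genes. At an unadjusted p under 0.05 by edgeR there were 2 members in generation 2 and 4 in generation 3, beside 11.6% and 8.58% of all genes.

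The sgs3-12 mutant had lower values than wild type in 58 of 73 members, beside 49.4% of all genes, with a median log2 fold change of -0.40, beside 0.01 over all genes. Without wild-type replicate 1 the median was 0.0028. Both mutant libraries lay below both wild-type ones in 25 members, 34.2%, beside 24.6% of all genes, and above in 2, ndhC and ycf1.1, beside 27.0%. Without wild-type replicate 1 the counts were 28 below, 38.4%, beside 39.5%, and 27 above, 37.0%, beside 41.3%. Only 2 members had an unadjusted p under 0.05 by edgeR, beside 9.91% of all genes, and DESeq2 called none, beside 2.82%.

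Ribosomal RNA was among the lower members. The second rrn16S copy had a log2 fold change of -1.84 ± 0.58 (adjusted p 0.387 by edgeR) and the second rrn23S copy one of -1.38 ± 0.53. With copies summed, rrn16S stood at 2.60 and 2.54 CPM in the mutant and rrn23S at 3.80 and 4.23, against 6.32 and 10.6 for rrn23S in wild type. The gene cemA, for an inner envelope protein, had -1.40 ± 0.64, with 2.84 and 2.05 CPM in the mutant and 9.20 and 3.71 in wild type. On the higher side ycf1.1 had 1.18 ± 0.68 and ndhC 0.20 ± 0.61.

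Identical genes of the inverted repeat did not share their counts evenly, which limits what a single copy can show. Both copies of rpl2 have the same 1507 bases, yet the second copy had 3761 counts over the 10 libraries and the first 1006, a ratio of 3.74 that ran only from 3.35 to 4.56 by library. For rps7 the ratio was 6.15, for rps12 3.54 and for rpl23 2.08, while the rrn16S and rrn23S copies had ratios of 0.870 and 1.06. The first ycf2 copy had no count in 5 libraries, where the second copy took them all. Among overlapping neighbours, the level of psbD, the D2 reaction centre protein, was 0.0927, 0.0846 and 0.0972 CPM in replicate 2 of wild type, of heated plants and of generation 2, and 1.16 to 2.48 in the other 7 libraries. It shares 53 bases with psbC, whose level was 3.93 and 2.55 CPM (wild type), 2.62 and 1.90 (heated) and 3.31 and 3.55 (generation 2). The psbC level was thus not clearly higher where psbD was near 0, and the sum of both ran from 1.99 to 6.41 CPM.

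**Figure D5:**
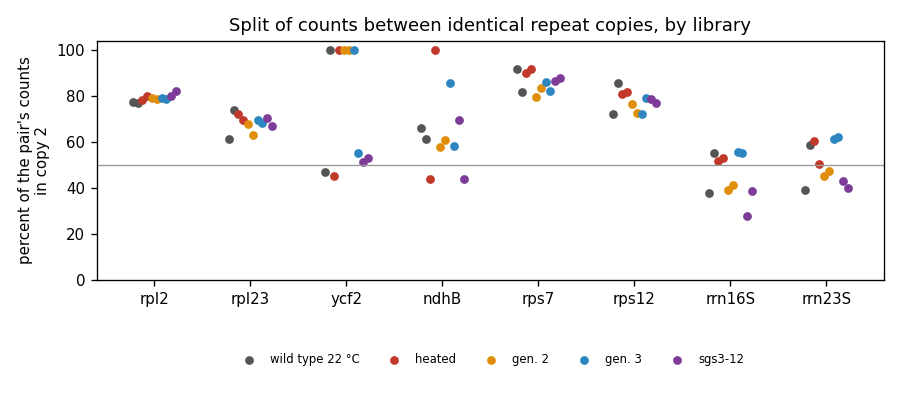
Share of the counts of each pair of identical inverted-repeat genes that fell on the second copy (percent), 1 point per library, coloured by group. The line marks an even split, and the rpl2 points lie close together well above it.

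A copy of the same sequence in the nuclear genome could also take up reads. At 98% identity or more over at least 90% of the gene, 1 of the 98 members, trnW, had a match, on chromosome 2.

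The nuclear genes for the same complexes were described from lists of partner genes. In heated plants against wild type, all 10 nuclear photosystem I genes were lower, with a median log2 fold change of -0.47, and 9 of 10 photosystem II genes, with -0.26, beside -0.02 over all genes. Summed over the list, photosystem I genes had 30124 and 25096 CPM (wild type) against 19123 and 20306 (heated). For PSAF, the plastocyanin docking subunit, the change was -0.99 ± 0.44 (adjusted p 0.630 by edgeR). The 8 nuclear NDH genes had a median of 0.41, with 6 higher, among them NDHO at 1.12 ± 0.39 (adjusted p 0.548). The 4 rubisco small subunit genes had a median of 0.69 with 3 higher, led by RBCS2B at 1.41 ± 0.62, but the wild-type libraries differed widely in it, with 2578 and 1082 CPM. Against the mean of the 4 unstressed groups, the median was -0.46 for photosystem I, with all 10 lower, -0.31 for photosystem II, with 9 of 10 lower, 0.04 for NDH, with 5 of 8 higher, and 0.15 for the rubisco small subunits, with 3 of 4 higher. No gene of these lists was called by edgeR, which called 0 of 19768 genes. DESeq2 called none of them either, beside 1.32% (against wild type) and 2.59% (against the unstressed groups) of all genes.

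The machinery of plastid gene expression was compared with wild type in the same way. The 8 genes of the nuclear-encoded plastid polymerase and the sigma factors had a median of -0.02, with 4 higher and 4 lower, and the 13 proteins associated with the plastid-encoded polymerase a median of 0.17, with 8 higher and 5 lower. Among 20 genes of chloroplast RNA processing and stability, 17 were lower, with a median of -0.23. Of these, CP29A, an RNA-binding protein that stabilises plastid mRNAs, had the lowest p, at -1.02 ± 0.52 (adjusted p 0.690 by edgeR). Summed over the 20 genes, wild type had 6570.7 and 4452.1 CPM and the heated plants 4871.4 and 5468.6. Of 20 nuclear plastid ribosomal proteins 12 were lower, with a median of -0.07, and of 5 nuclear b6f and ATP synthase genes 4 were lower, with -0.15. In every list of this paragraph, the summed levels of both heated libraries lay between those of the wild-type libraries. The direction of these sums therefore depended on which wild-type library was compared. Against the mean of the 4 unstressed groups, the polymerase and sigma factors had a median of -0.31, with 5 of 8 lower. The polymerase-associated proteins had 0.23, with 11 of 13 higher. RNA processing had -0.10 with 13 of 20 lower, ribosomal proteins -0.01 with 10 of 20 lower, and b6f and ATP synthase -0.38 with all 5 lower. Here too the summed levels of both heated libraries lay within the unstressed range in every list. In this comparison DESeq2 called 1 gene of each of the first 2 lists, both higher, beside 2.59% of all genes.

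In sgs3-12 against wild type, all 20 nuclear plastid ribosomal protein genes were lower, with a median of -0.77, as were all 10 of photosystem I, with -0.75, all 10 of photosystem II, with -0.90, and all 5 of b6f and ATP synthase, with -0.32. Over all genes tested the median was 0.01. Other lists went the other way or were split: the nuclear-encoded polymerase and sigma factors had a median of 0.50 with 6 of 8 higher, the rubisco small subunits 0.60 with 3 of 4 higher, and the nuclear NDH genes 0.05 with 6 of 8 higher. RNA processing genes had -0.28 with 12 of 20 lower, and the proteins associated with the plastid-encoded polymerase -0.14 with 10 of 13 lower. Photosystem II genes summed to 21708 and 20265 CPM in the mutant and 41694 and 34380 in wild type. Of these lists' genes edgeR called 0, and DESeq2 called 1, a lower RNA processing gene, beside 2.82% of all genes.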

How the data were processed

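PolyA RNA-seq of 10 libraries in 5 groups of 2 was analysed, grouped by the sample titles. The submitters' processing notes name HISAT2 2.0.4 for alignment, StringTie 1.3.0 for assembly, and the TAIR10 build. The sources used here do not name the program that counted the reads, nor its treatment of strand and of reads with several matches, and therefore copies, overlapping genes and antisense signal are uncertain. Raw read counts of each gene were deposited, and were used as they stand. FPKM values named as such in the file headers were deposited in the same table. Of its 10 FPKM columns 8 were used, since the name of the other 2, both of plants grown at 30 °C, does not tell them apart. FPKM for all libraries was computed from counts and the gene lengths implied by those columns, and differed from the deposited FPKM by a relative 0.000488 at most.

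Differences were tested on counts with edgeR 4.0.16 (R 4.3.3, quasi-likelihood F-test, TMM, filterByExpr) fitted jointly to the 10 libraries by group, and p-values were adjusted by Benjamini-Hochberg over 19768 genes. Calls were made at an adjusted p under 0.05. The code of the fit was run on simulated counts with known changes. No outcome is given here, so this run says nothing of the power in these libraries. Of the 98 members, 25 had too few counts to test, with 1.69% of the members' counts. Of the 73 tested, 42 reached the filter in all libraries and 0 through 1 group only. DESeq2 1.42.0, limma-voom 3.58.1, other scalings, no filter, a replicate block, summed repeat copies and left-out libraries were alternatives, and sums of the ycf1 and of the psbD and psbC rows were added after the data were seen. Counts of separated members without doubted libraries were also added then. Shares were compared by exact permutation of log2 values. Errors beside fold changes are standard errors, and n = 2 per group.

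Members named by rule are the 10 with the highest mean CPM, the highest of each family, those DESeq2 called and, in each comparison, up to 3 with the largest positive and 3 with the largest negative log2 fold changes among tested members whose libraries did not overlap. Other members were named for their place in a family, unit or repeat after their values were seen. The members and the lists were chosen with earlier results of these data known.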

Additional observations from a re-analysis of the deposited data

How the results depend on the processing

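Of 836 values of the 44 named member comparisons, under those alternatives that gave member fold changes, all 836 kept their direction, and 5, all by DESeq2, became called. These members were picked for separated libraries and large fold changes, so their direction could hardly change. The kept directions therefore say little about how firm the results are. DESeq2 called 2 members in generation 2 against heated plants and 3 in the latter against the unstressed groups, and under every other alternative 0 were called. Leaving out 1 library moved the median log2 fold change from -0.67 to 0.0070 in heated plants against wild type, -0.21 to 0.66 in generation 2, -0.15 to 0.62 in generation 3 and -0.62 to 0.0028 in sgs3-12. It moved it from 0.33 to 0.72 and from 0.47 to 0.74 in generations 2 and 3 against heated plants, and from -0.53 to -0.33 in the latter against the unstressed groups. Without the first libraries of generations 2 and 3 together, the generation 2 median was -0.17 against wild type and 0.36 against heated plants. The cause was not tested. The chloroplast share without the most abundant row was 0.0194% (heated), 0.0268% (generation 2), 0.0262% (generation 3) and 0.0219% (sgs3-12), and without rRNA and tRNA 0.0314% in generation 3 and 0.0261% in sgs3-12. By single library it ran from 0.0262% to 0.0396% (wild type), 0.0206% to 0.0234% (heated), 0.0285% to 0.0359% (generation 2), 0.0318% to 0.0326% (generation 3) and 0.02706% to 0.02709% (sgs3-12). Whether replicate numbers pair the libraries was not settled. Differences between replicates 1 and 2 correlated between groups from -0.266 to 0.452, and the highest value was that of generations 2 and 3. The fit with the replicate block called 0 members, as did the fit without it, so these calls cannot decide the question.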
